A study of Mus musculus with 16 samples.

Results

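Nfat5, Akr1b3, Slc5a3, Slc6a6, Hspa4l and Sgk1 are 6 genes of the cellular response to osmotic stress, taken by name from the 25745 genes of the count table and followed through all 16 libraries. They were chosen by their expression level in library 11, an untreated empty-vector library in which an earlier reading of the same data found them high, so their levels there are a description and carry no test. Cells in hypertonic surroundings lose water, and the transcription factor NFAT5 (also called TonEBP) then turns on genes that let them build up small organic osmolytes in place of salt. Akr1b3 encodes aldose reductase, which makes sorbitol from glucose. Slc5a3 and Slc6a6 encode the sodium-coupled carriers of myo-inositol and taurine. Hspa4l encodes an Hsp110 family chaperone known for its rise under osmotic stress, and Sgk1 encodes a kinase known for its fast induction by cell shrinkage, serum and glucocorticoids. The programme is best known from the kidney medulla, whose cells live in hypertonic surroundings.

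The libraries came from 6DT1, a mouse mammary cancer cell line labelled with strain FVB/N1, transduced with a lentivirus carrying CLIC4, of the chloride intracellular channel proteins, or with its empty counterpart. Cells were left untreated (NT) or received 1 µM hydrogen peroxide (H2O2) for 24 h, which gave the groups NT_Lenti (libraries 1 to 4), H2O2_Lenti (5 to 8), NT_Empty (9 to 12) and H2O2_Empty (13 to 16) with 4 libraries each. In the descriptions of the samples, Empty cells are termed CLIC4-Knockout and Lenti cells wild type, whereas the series text names only the vectors. Whether a group's libraries came from separate cultures is not stated, so the p-values reflect sample-to-sample spread that may be technical. The labels also do not say whether the transduced cells were a pool or a clone.

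Clic4 itself, the gene the vector carries, was read first as a check of the labels. It stood at 222 to 258 CPM (counts scaled to library size, here by TMM, which aligns the bulk of genes between libraries) in the 8 lentivirus libraries and at 39.5 to 45.1 CPM in 7 of the 8 empty-vector libraries. Library 11 held 138 CPM of Clic4, between these ranges. Total counts ran from 47089156 to 61945199 per library, with 53586148 in library 11. The TMM factor was 0.721 for library 11 and 0.986 to 1.040 for the other 15. Of 7 epithelial markers counted, Krt8, Krt18 and Krt19 were above 1 CPM in every group. The other 4, Epcam and Cdh1 among them, were under 1 CPM in each group when library 11 was left out. Epcam was at 0 counts in libraries 9, 10 and 12 and at 13.0 CPM in library 11. In bulk RNA, fewer cells that express a gene and less RNA per cell cannot be told apart.

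Akr1b3 lies on the minus strand of chromosome 6 (mm10, chr6:34302434-34317478), and its coding sequence has a near-identical copy elsewhere. Gm6644, a processed pseudogene of 1 exon on the minus strand of chromosome 1 (chr1:55444074-55445024), aligned over all its 951 bases to the spliced Akr1b3 transcript of 10 exons at 99.7% identity. The 3 differing bases are A536G, T630C and G841C, with the Akr1b3 base first and positions counted from 1 at the 5′ end of the Gm6644 model. The stretch of 61 bases around the second of them is shown, with the differing base in capitals, because such bases tell the genes apart. Reads inside the 951 aligned bases that miss all 3 cannot be assigned to either gene by sequence. The Akr1b3 transcript has 73 bases before the aligned part and 363 after it that the copy lacks. The Akr1b3 stretch crosses an exon junction, so its ends are chr6:34309657-34310020, and the Gm6644 stretch is chr1:55444365-55444425, both read on the minus strand.
Akr1b3: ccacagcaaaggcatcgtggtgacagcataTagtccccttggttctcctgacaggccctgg
Gm6644: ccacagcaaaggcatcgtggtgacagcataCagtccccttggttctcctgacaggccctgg
Gm6644 took 13.1% of the summed counts of both genes in library 11 and 11.5% to 14.0% in the other 15 libraries. Its own log2 ratio of library 11 over libraries 9, 10 and 12 was 6.34, and the ratio of the summed counts was 6.38, equal to that of Akr1b3 alone to 2 decimals.

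Slc5a3 shares its start with another gene. It lies on the plus strand of chromosome 16 (mm10, chr16:92058322-92087473) inside the span of Mrps6 (chr16:92058270-92112227), which encodes a subunit of the mitochondrial ribosome. In the RefSeq promoter table (GRCm38.p6) the windows of the genes, each 250 bases before to 50 after a start, share 286 of their 300 bases. The sequence from 250 bases before the RefSeq start of Slc5a3 is shown (chr16:92058072-92058335, plus strand) because it is the common upstream region of both genes, and the capitals mark the 14 bases from the Slc5a3 start to the base before the Mrps6 start.
Slc5a3: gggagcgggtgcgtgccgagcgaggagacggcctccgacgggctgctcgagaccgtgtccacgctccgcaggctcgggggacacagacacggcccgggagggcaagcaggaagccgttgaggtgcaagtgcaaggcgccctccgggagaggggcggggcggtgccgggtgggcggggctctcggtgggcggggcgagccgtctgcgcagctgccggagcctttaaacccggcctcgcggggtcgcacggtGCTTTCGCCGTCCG
Exons of the genes overlap by 159 bases, which is 1.46% of the exonic bases of Slc5a3 and 10.4% of those of Mrps6.

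Nfat5 (chr8:107293470-107379517, plus strand), Slc6a6 (chr6:91684053-91759066, plus), Hspa4l (chr3:40744495-40796103, plus) and Sgk1 (chr10:21882184-21999903, plus) are protein-coding genes on mm10 as well. The table held promoter windows for 4 of the 6 genes (Nfat5, Slc5a3, Hspa4l and Sgk1). TGGAAA, the core letters of the element NFAT5 binds, searched on both strands, occurred in 21.4% of all 32851 windows. Among the members it was found in 2 of the 6 windows of Sgk1 and in none of the windows of Nfat5, Slc5a3 and Hspa4l. Both Sgk1 sequences are shown up to the start of the transcript because they are the only windows of the members that hold these letters, which stand in capitals (TTTCCA is the reverse complement). The first is chr10:21881934-21882183 and the fifth chr10:21993640-21993889, both plus strand.
Sgk1 window 1: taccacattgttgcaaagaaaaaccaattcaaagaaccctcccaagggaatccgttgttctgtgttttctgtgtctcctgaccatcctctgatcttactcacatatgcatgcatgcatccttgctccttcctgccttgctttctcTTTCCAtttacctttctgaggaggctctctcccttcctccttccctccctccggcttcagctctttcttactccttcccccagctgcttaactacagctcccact
Sgk1 window 5: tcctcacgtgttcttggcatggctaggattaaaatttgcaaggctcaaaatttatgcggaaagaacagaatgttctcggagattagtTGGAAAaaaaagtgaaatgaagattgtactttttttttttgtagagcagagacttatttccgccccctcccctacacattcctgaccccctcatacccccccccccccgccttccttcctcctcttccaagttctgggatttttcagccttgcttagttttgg
GAANNTTC, the paired unit that heat shock factors bind, occurred in 7.86% of all windows, in windows 3 and 5 of Sgk1 and in none of the windows of Nfat5, Slc5a3 and Hspa4l. A match is a string of letters and not a measured binding site.

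Nfat5, the regulator, stood at 183, 180 and 195 CPM in libraries 9, 10 and 12 and at 1050 CPM in library 11. The NT_Lenti libraries held 168, 218, 184 and 196 CPM and the H2O2_Lenti libraries 227, 193, 225 and 187 CPM. The H2O2_Empty libraries held 163, 163, 148 and 138 CPM. Library 11 was thus 5.65-fold above the mean of its group (186 ± 8.09 CPM, SD, n = 3), a log2 ratio of 2.50, and far above every other library. The 4 treated empty-vector libraries were the lowest of the 16.

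Akr1b3, the sorbitol-making enzyme, stood at 175, 173 and 169 CPM in libraries 9, 10 and 12 and at 14375 CPM in library 11. That library alone held 554648 of its counts, against 5400 to 10242 in each of the others. The NT_Lenti libraries held 113, 101, 111 and 116 CPM, the H2O2_Lenti libraries 104, 108, 112 and 108 CPM, and the H2O2_Empty libraries 163, 168, 163 and 170 CPM. Library 11 was 83.5-fold above the mean of libraries 9, 10 and 12 (172 ± 3.11 CPM, SD, n = 3). Leaving library 11 aside, the empty-vector libraries lay above the lentivirus libraries without overlap. Such a gap, here and for Slc6a6 and Sgk1 below, was found in either direction for 57.8% of all genes tested.

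Slc5a3, the myo-inositol carrier, stood at 84.5, 78.0 and 83.0 CPM in libraries 9, 10 and 12 and at 177 CPM in library 11, which is 2.17-fold. The NT_Lenti libraries held 74.7, 89.8, 74.0 and 88.9 CPM, the H2O2_Lenti libraries 102, 75.9, 100 and 80.6 CPM, and the H2O2_Empty libraries 67.1, 70.3, 67.4 and 63.3 CPM. As for Nfat5, the treated empty-vector libraries were the lowest. Slc6a6, the taurine carrier, stood at 350, 343 and 324 CPM in libraries 9, 10 and 12 and at 464 CPM in library 11, which is 1.37-fold and the smallest ratio of the 6 genes. The lentivirus libraries lay lower, at 254 to 266 CPM untreated (259.7, 259.4, 266 and 254) and at 274, 271, 284 and 278 CPM with H2O2. The H2O2_Empty libraries held 313, 322, 315 and 310.0 CPM of Slc6a6, above all 8 lentivirus libraries.

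Hspa4l, the chaperone, stood at 148, 137 and 149 CPM in libraries 9, 10 and 12 and at 1814 CPM in library 11, which is 12.5-fold. Its other groups lay close together, at 125, 133, 126 and 129 CPM in NT_Lenti, at 139, 125, 134 and 127 CPM in H2O2_Lenti and at 136, 127, 143 and 138 CPM in H2O2_Empty. Sgk1, the kinase, was the least abundant of the 6 genes outside library 11. It stood at 10.8, 10.2 and 9.58 CPM in libraries 9, 10 and 12 and at 654 CPM in library 11, which is 64.2-fold. The H2O2_Empty libraries held 8.33, 8.80, 10.8 and 11.9 CPM. The NT_Lenti libraries held 1.55, 1.75, 2.58 and 1.90 CPM and the H2O2_Lenti libraries 1.56, 1.497, 2.03 and 1.88 CPM, from 83 to 146 counts each, all below the empty-vector libraries.

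**Figure D1:**
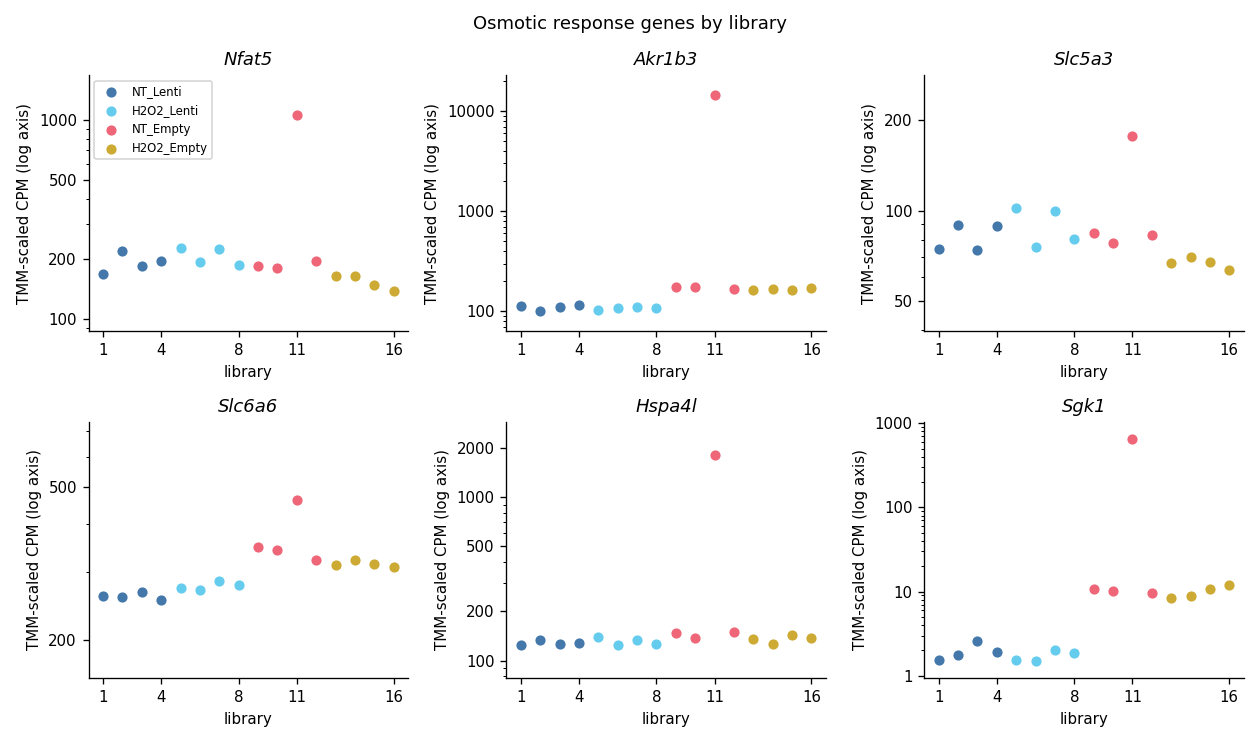
TMM-scaled CPM of the 6 osmotic response genes in each of the 16 libraries (1 point per library, log axis, coloured by group). Library 11 is the highest point in every panel. Akr1b3, Slc6a6 and Sgk1 also separate the other empty-vector libraries from the lentivirus libraries, as do 57.8% of all genes tested.

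With TMM scaling, all 6 genes were higher in library 11 than in any of the other 15 libraries. On total counts Slc6a6 was not, at 334 CPM in library 11 and 362 CPM in library 9. With TMM scaling, 5 of the 6 were at least 2-fold above the mean of libraries 9, 10 and 12. These contrasts chose the genes, so nothing is read from the counts. Of the 12321 genes with at least 1 CPM in library 11 or in that mean, 20.2% were higher by 2-fold or more, 22.2% lower by as much and 39% above all other 15 libraries. Folds of 8 or more were found in 4.72% of genes, of 32 or more in 2.3% and of 64 or more in 1.63%. By log2 ratio Akr1b3 ranked 171, Sgk1 201, Hspa4l 445, Nfat5 761, Slc5a3 2218 and Slc6a6 4159 of 12321. Library 11 therefore differed from its group at a large share of all genes, and the members spanned the range from near the top to a small difference. The same measure was taken for libraries 9, 10 and 12, each against the mean of the others of this set without itself. It gave 62 to 90 genes at least 2-fold higher and no member past a log2 difference of 0.133.

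Against the other groups the order of the ratios was much the same. The log2 ratio of library 11 over the group mean was 7.03, 7.06 and 6.44 for Akr1b3 in NT_Lenti, H2O2_Lenti and H2O2_Empty. For Sgk1 it was 8.39, 8.55 and 6.04, with the higher values against the lentivirus groups. For Hspa4l it was 3.82, 3.79 and 3.74, and for Nfat5 2.46, 2.34 and 2.78. Slc5a3 gave 1.12, 0.98 and 1.40 and Slc6a6 0.84, 0.75 and 0.56.

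The scaling bears on the 2 carriers. The median log2 ratio of library 11 over libraries 9, 10 and 12 across all expressed genes was -0.06 with TMM, 0.02 with RLE size factors, -0.59 with CPM on total counts, -0.56 with CPM on totals without structural RNA and mitochondrial genes and -0.51 in the deposited FPKM (fragments scaled to gene length and depth). Slc6a6 had 17892 counts in library 11 and 17400 to 20303 in libraries 9, 10 and 12, and its log2 ratio of 0.45 turned to -0.07 on total counts and to -0.04 without structural and mitochondrial genes. Relative to the median gene it was 0.52 with each of the 4 count scalings and 0.90 in FPKM. Slc5a3 moved from 1.12 with TMM to 0.59 on total counts and in FPKM, below a 2-fold ratio. The other 4 genes stayed between 1.98 (Nfat5, total counts) and 6.47 (Akr1b3, RLE size factors).

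**Figure D2:**
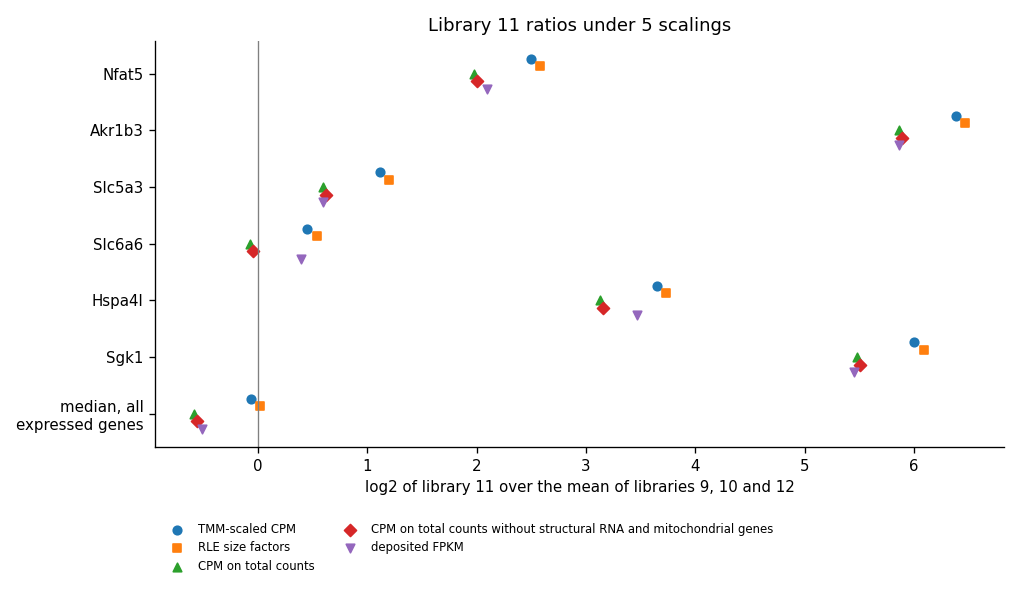
Log2 ratio of library 11 over the mean of libraries 9, 10 and 12 for the 6 genes and, in the bottom row, the median over expressed genes (1 marker per scaling). Total-count scalings and FPKM shift most values to the left. Slc6a6 is the only one of the 6 genes with values on both sides of 0, and the median row runs from -0.59 to 0.02.

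Deposited FPKM, the values per length, allow levels to be compared between genes. In each of the other 15 libraries the order was Akr1b3, Slc6a6, Hspa4l, Nfat5, Slc5a3 and Sgk1, with 86.1 to 153 FPKM for Akr1b3, 44.9 to 63.1 for Slc6a6, 26.6 to 34.4 for Hspa4l, 13.3 to 21.8 for Nfat5, 6.12 to 9.77 for Slc5a3 and 0.70 to 6.08 for Sgk1. The ranges of neighbours in this order did not overlap, and Slc5a3 and Sgk1 came closest, at 6.12 and 6.08 FPKM in library 16. In library 11 the order was Akr1b3 at 8792 FPKM, Hspa4l at 365, Sgk1 at 225, Slc6a6 at 80.1, Nfat5 at 78.2 and Slc5a3 at 11.9. The 6 genes together made up 1.33% of all counts there and 0.0757% to 0.0985% elsewhere.

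Mrps6, which shares its upstream region with Slc5a3, differed from it in library 11. Mrps6 stood at 34.4, 33.6 and 31.2 CPM in libraries 9, 10 and 12 and at 676 CPM in library 11, a log2 ratio of 4.35 beside 1.12 for Slc5a3. The counts of Mrps6 were 0.365 to 0.528 times those of Slc5a3 in the other 15 libraries and 3.81 times in library 11. Summed, both genes were 7.42-fold higher in library 11. How the counting divided reads of the shared region is not given in the sources used here.

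Genes known from hypertonic cells were also high in library 11, as a description. This list, like those below, was drawn up with earlier results of these data known and is no independent support. Of 18 such genes, 15 were expressed, for which 1 CPM in library 11 alone was enough. Among these, 13 had ratios of 2-fold or more over libraries 9, 10 and 12 and none was lower by that much, at a median log2 ratio of 4.75 beside -0.06 for all genes. Of all genes, 20.2% were higher by as much and 22.2% lower. Hspa1a and Hspa1b, the inducible Hsp70 genes, stood at 229 and 628 CPM in library 11 and at 0.676 and 2.34 CPM on average in libraries 9, 10 and 12, log2 ratios of 8.40 and 8.07. These paralogs are near-identical, so reads may be split between them. Picked after their values were seen, Ptgs2 (cyclooxygenase-2) stood at 2599 against 21.4 CPM, Atp1b1 (a sodium pump subunit) at 2472 against 49.9 CPM, and Gadd45g (a growth arrest gene) at 418 against 6.08 CPM. Aqp1, a water channel, stood at 236 against 7.27 CPM. Aqp5 and S100a4 were the exceptions, with log2 ratios of 0.01 and 0.02.

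Genes that make or carry osmolytes did not share 1 direction. Of 20, 17 were expressed, 6 of them higher and 3 lower by 2-fold or more, with a median log2 ratio of -0.01. The shares over all genes were 20.2% higher and 22.2% lower. Slc6a12, the betaine carrier, had 577 counts (15.0 CPM) in library 11, 0 counts in libraries 9, 10 and 12 and 1 count in all the other groups together. Against a floor of 3 counts over libraries 9, 10 and 12 it was at least 846-fold higher. Cdo1, an enzyme of taurine synthesis, stood at 2.36 against 0.213 CPM. Picked after their values were seen, Isyna1, which makes inositol phosphate, had a log2 ratio of 2.66 and Slc38a2, a neutral amino acid carrier, 2.42, while Impa2, an inositol monophosphatase, had -1.03.

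In the Hsp110 and Hsp70 family 4 of 9 expressed genes were higher by 2-fold or more and none lower, led by Hsph1 (3561 against 132 CPM, log2 ratio 4.75) and Hspa4 (1.79). All 9 were above the other 15 libraries, as were 39% of all genes. The counts of this paragraph are read beside 20.2% of all genes higher by 2-fold or more and 22.2% lower. Of 18 expressed genes of volume regulation 4 were higher and 3 lower, among them Ano6, a scramblase and channel (1.79), and Lrrc8b, a subunit of volume-regulated anion channels (-2.25). Of 12 genes of osmotic signalling 4 were higher and none lower, with Hspb1, a small heat shock protein, at 1.99 and Akap13, an anchoring protein, at 1.89. Of 11 genes around SGK1 2 were higher and 1 lower, with Ndrg2, a substrate family member, at 5.59 and Sgk2 at -2.04. Of 9 glucocorticoid targets 4 were higher (Dusp1 2.93 and Nfkbia 2.86 the most) and 3 lower. None of the 3 expressed NFAT relatives of Nfat5 passed 2-fold, with Nfatc1 at 0.77 and Nfatc2 at 0.64. Over all 94 expressed pathway genes, Mrps6 included, 37 passed 2-fold upwards and 10 downwards, beside 20.2% and 22.2% of all 12321 genes.

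**Figure D3:**
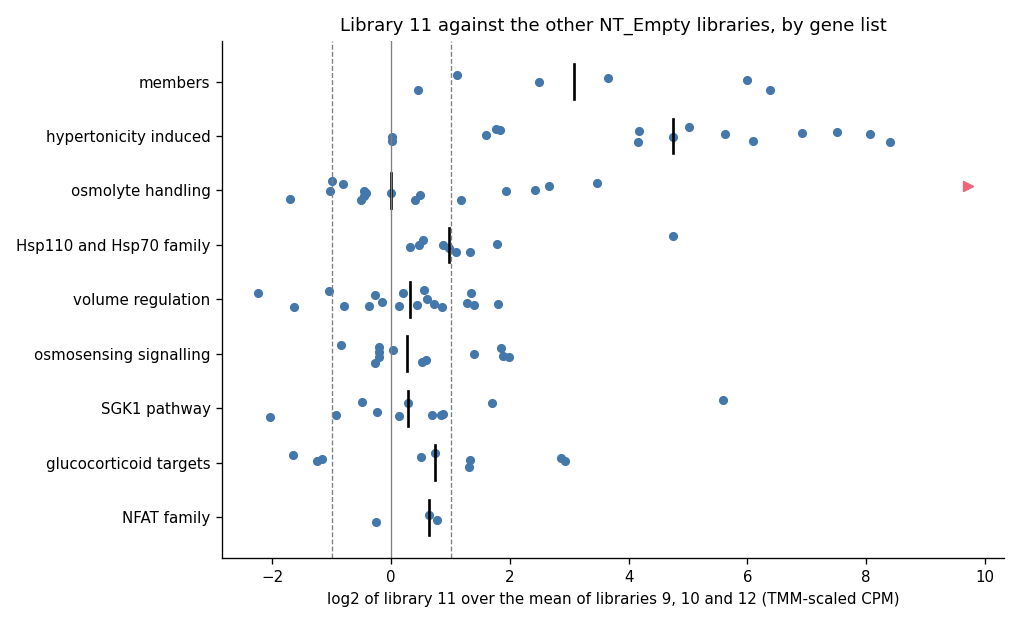
Log2 ratio of library 11 over the mean of libraries 9, 10 and 12 for expressed genes of each list (1 point per gene, black bar for the list's median, dashed lines at 2-fold, red triangle for Slc6a12 at its lower bound). The hypertonicity-induced list has its median at 4.75, the osmolyte-handling list at -0.01.

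Other measures moved with library 11. Structural RNA genes made up 0.724% of library 11, beside 0.0209% to 0.0244% of libraries 9, 10 and 12 and at most 0.0389% elsewhere. Mitochondrial mRNA made up 2.41%, beside 1.08% to 1.43% in the same libraries and up to 3.38% elsewhere. Genes with at least 1 CPM numbered 11802, against 11572 to 11717. Summed epithelial markers reached 1396 CPM, against 940 to 979 CPM in libraries 9, 10 and 12, and summed immune markers 384 CPM, against 223 to 252 CPM. Not all markers were higher there: Krt8 stood at 371 CPM against 614 on average in libraries 9, 10 and 12 (log2 ratio -0.73), and Itgam at 0.907 against 4.91 CPM (-2.43). Cd68 made up most of the immune sum in library 11 at 369 CPM, Csf1r stood at 14.5 CPM, and 3 of the 6 immune markers in the table had 0 counts there. The part of these in the members' levels was not tested.

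Without library 11, the empty-vector and lentivirus cells differed at most genes, and 4 of the 6 members were called higher in NT_Empty than in NT_Lenti. By edgeR's quasi-likelihood test with Benjamini-Hochberg adjustment, 74.4% of the 14602 genes tested were called in this comparison (37% higher), so the members' count is near the background. Sgk1 was higher by 2.39 on the log2 scale (SE 0.15, adjusted p = 1.1e-10), at 10.2 ± 0.617 CPM (SD, n = 3) against 1.95 ± 0.446 (SD, n = 4). Akr1b3 was higher by 0.64 (SE 0.04, adjusted p = 1.4e-11), Slc6a6 by 0.38 (SE 0.03, adjusted p = 7.7e-10) and Hspa4l by 0.18 (SE 0.04, adjusted p = 0.00136). For each of these 4 genes the NT_Empty libraries lay above the NT_Lenti libraries without overlap, as 71.8% of all genes were apart in either direction. Over both treatments Akr1b3, Slc6a6 and Sgk1 (3 of 6) kept the 7 empty-vector libraries apart from the 8 lentivirus libraries, as did 57.8% of all genes. Nfat5 (-0.04, SE 0.09, adjusted p = 0.710) and Slc5a3 (0.00, SE 0.10, adjusted p = 0.990) did not pass the test, and their ranges overlapped. With library 11 kept in a fit of 16 libraries, the same 4 genes were called, beside 53.3% of all genes. Akr1b3 then stood at 5.08, Sgk1 at 6.46 and Hspa4l at 2.13. The genes were chosen by their level in library 11, so their calls in that fit are no support.

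In H2O2-treated cells 5 of the 6 members were called between the vectors, 3 higher and 2 lower in the empty-vector cells, where 73.8% of all genes tested were called. Sgk1 was higher by 2.51 (SE 0.14, adjusted p = 2.7e-11), Akr1b3 by 0.62 (SE 0.04, adjusted p = 7.2e-12) and Slc6a6 by 0.19 (SE 0.03, adjusted p = 6.1e-06). Nfat5 was lower by a log2 change of -0.44 (SE 0.09, adjusted p = 0.000462), at 153 ± 12.3 against 208 ± 21.0 CPM (SD, n = 4 each). Slc5a3 was lower by -0.42 (SE 0.10, adjusted p = 0.00154), at 67.0 ± 2.85 against 89.6 ± 13.3 CPM (SD, n = 4 each). Groups did not overlap for any of these 5 genes, nor for 69.1% of all genes. Hspa4l did not pass on counts (0.05, SE 0.04, adjusted p = 0.255), whereas in FPKM its 4 H2O2_Empty values (30.8 to 33.95) lay above its H2O2_Lenti values (26.9 to 28.3), and limma on log2(FPKM + 1) gave 0.23 (adjusted p = 9.6e-05). With library 11 in the fit, none of the 6 was called, and the coefficient of variation shared by all groups was 23.1% in place of 5.28%. The edgeR adjusted p-values were 0.693 for Akr1b3, 0.482 for Nfat5, 0.139 for Slc5a3, 0.0972 for Slc6a6 and 0.0956 for Sgk1, with 42.1% of genes called (22.1% higher).

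**Figure D4:**
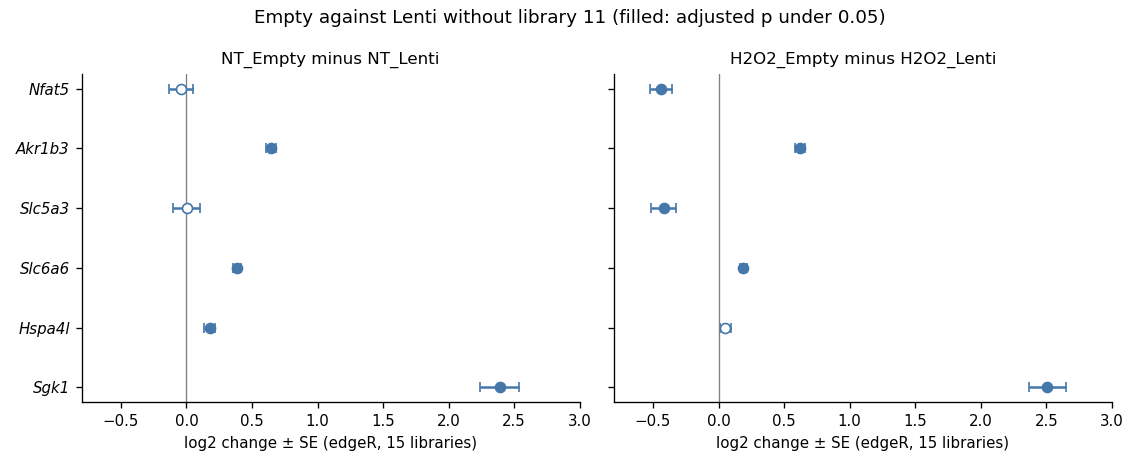
Log2 change of the 6 genes between empty-vector and lentivirus cells, untreated (left) and with H2O2 (right), from the edgeR fit of 15 libraries (points with SE, filled where the adjusted p is under 0.05). Sgk1 has the largest change in both panels, at 2.39 and 2.51, and Nfat5 and Slc5a3 lie near 0 on the left and below 0 on the right.

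The other pathway genes also differed between the vectors in both directions, in comparisons that called 37% of all genes higher and 37.3% lower untreated and 36.6% higher and 37.2% lower with H2O2. Of 96 tested, Mrps6 included, 56 were higher and 26 lower in NT_Empty (median 0.20 beside -0.02 for all genes). In H2O2_Empty 43 were higher and 29 lower (median 0.10 beside -0.01). Among the hypertonicity-induced genes 5 of 14 were higher and 5 lower in untreated cells. Aqp1 (-2.57, SE 0.07, adjusted p = 1.9e-17) and Vegfc, a lymphatic growth factor (-3.21, SE 0.09, adjusted p = 1.4e-16), fell the most clearly. Hspa1a and Hspa1b, so high in library 11, did not pass the test between the vectors (0.07 and 0.14 untreated). In library 11 Aqp1 was on the opposite side, and with it in the fit Aqp1 stood at 0.57.

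Among osmolyte genes 6 of 17 were higher and 7 lower in untreated cells and 5 and 7 with H2O2. Beside the counts of this paragraph, 37% of all genes were higher and 37.3% lower untreated, and 36.6% and 37.2% with H2O2. Slc38a1, an amino acid carrier, rose by 0.75 (SE 0.03) untreated and 0.66 (SE 0.03) with H2O2, Impa2 by 0.58 (SE 0.04) untreated, and Csad, the decarboxylase of taurine synthesis, changed by -0.92 (SE 0.05) with H2O2. Of 20 volume regulation genes 13 were higher and 4 lower untreated, and 11 and 5 with H2O2. Stk39, the SPAK kinase that activates cation-chloride carriers, changed by -3.24 (SE 0.08) untreated, and Slc12a2, the NKCC1 carrier it acts on, by -1.59 (SE 0.05). Among genes of osmotic signalling 10 of 12 were higher untreated and none lower, led by Hspb1 (1.61, SE 0.07). With H2O2, 8 were higher and 1 lower, and Map2k3, a kinase upstream of p38, stood at 0.53 (SE 0.03).

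Around SGK1, 5 of 11 genes were higher and 5 lower untreated and 2 and 6 with H2O2. The shares over all genes, here and for the lists below, were 37% and 37.3% untreated and 36.6% and 37.2% with H2O2. Sgk2, a close relative of Sgk1, rose with it by 2.19 (SE 0.10) untreated and 2.04 (SE 0.10) with H2O2, whereas Foxo3, a substrate, changed by -0.63 (SE 0.05) with H2O2. Of 10 glucocorticoid targets 7 were higher and 3 lower untreated and 6 and 3 with H2O2, with Mt2, a metallothionein, at 1.23 (SE 0.05) and Fkbp5 at 0.55 (SE 0.03) untreated. Among Hsp110 and Hsp70 genes 8 of 9 were higher and 1 lower untreated and 7 and 1 with H2O2, with Hsph1 at 0.82 (SE 0.05) and Hspa13 at 0.56 (SE 0.04) untreated. All 3 tested NFAT relatives were higher untreated (Nfatc2 0.36, SE 0.07, and Nfatc1 0.32, SE 0.05) and 1 of 3 with H2O2. Mrps6 fell by 0.23 on the log2 scale (SE 0.05) untreated and by 0.19 (SE 0.05) with H2O2. In the fit with library 11 its untreated change was 2.32.

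None of the 6 genes was called for its response to H2O2. In empty-vector cells, where 0.24% of all genes were called, Nfat5 changed by -0.28 (SE 0.09, adjusted p = 0.195), Slc5a3 by -0.29 (SE 0.10, adjusted p = 0.236) and Slc6a6 by -0.11 (SE 0.03, adjusted p = 0.116), each without overlap of the 4 treated and the 3 untreated libraries, as were 12.8% of all genes. Their unadjusted p-values were 0.0108, 0.0164 and 0.00273, so 3 of the 6 genes were under 0.05 before adjustment, as were 1994 of 14602 genes. DESeq2 called Nfat5 (adjusted p = 0.0362) and Slc6a6 (0.0389), where it called 2.86% of all genes. An edgeR fit of the empty-vector libraries alone called Nfat5 (adjusted p = 0.0440) and Slc5a3 (0.0115), beside 2.38% of all genes. Akr1b3 (-0.05), Hspa4l (-0.09) and Sgk1 (-0.04) did not pass in any of these fits. The count of genes called by edgeR in empty-vector cells ran from 0 to 292 when single libraries were left out (292 without library 3).

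In lentivirus cells edgeR called 0 of 14602 genes (0%), with 2135 at an unadjusted p under 0.05, and DESeq2 called 277 genes and no member. Nfat5 stood at 0.12 (SE 0.09), Slc5a3 at 0.13 (SE 0.10) and Slc6a6 at 0.09 (SE 0.03, adjusted p = 0.189). Treated and untreated lentivirus libraries did not overlap for Slc6a6, nor for 11.1% of all genes. The difference between the H2O2 responses of the vectors, called at 0.192% of genes (0.0685% higher), was -0.40 for Nfat5 (SE 0.13, adjusted p = 0.155), -0.42 for Slc5a3 (SE 0.14, adjusted p = 0.173) and -0.20 for Slc6a6 (SE 0.04, adjusted p = 0.0583). DESeq2 called all 3 (adjusted p = 0.0163, 0.0224 and 0.00126), where it called 3.36% of all genes. The edgeR test called Slc6a6 without a filter (adjusted p = 0.0274) and without library 2 (0.0473) or 14 (0.0404). These edgeR fits called 0.665%, 1.17% and 0.941% of all genes. These comparisons share their untreated or empty-vector libraries, so their values are not independent of each other.

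Nfat5 and Slc5a3 also varied alike between the libraries of a group. The log2 deviations of single libraries from their group mean ran from -0.18 to 0.19 for Nfat5 and from -0.23 to 0.20 for Slc5a3, and over the 15 libraries without library 11 they correlated at r = 0.843, as a description. The other pairs of members ran from -0.499 (Nfat5 and Akr1b3) to 0.597 (Slc5a3 and Hspa4l), with Nfat5 and Slc6a6 at 0.0145. Such likeness was not particular to the pair, and other genes are given as examples. In library 1, the lowest for Nfat5 (-0.18), Wnk1 stood at -0.11, Atm at -0.25, Akap13 at -0.24 and Mtor at -0.18. In library 2, the highest for Nfat5 (0.19), they stood at 0.14, 0.19, 0.19 and 0.10. Nfat5 and Slc5a3 are long genes, with 18378 and 10913 exonic bases (percentiles 99.1 and 93.6 of the tested genes), and libraries differed in how all genes deviated with length. The rank correlation of deviation with exonic length ran from -0.193 to 0.193 over the other 15 libraries, and this value correlated at 0.760 with the deviation of Nfat5 and 0.568 with that of Slc5a3.

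The H2O2 changes of long genes had the same sign as those of Nfat5 and Slc5a3 more often than those of all genes did. The long genes, here those at least as long as Slc5a3, include Nfat5, Slc5a3 and Hspa4l themselves. Of the 932 tested genes at least as long as Slc5a3, 76.1% had a negative H2O2 change in empty-vector cells (median -0.08, beside 55.9% and -0.01 for all genes), 20.6% in lentivirus cells (median 0.06, beside 49.8% and 0.00), and 79.6% a negative difference of responses (median -0.13). Between the untreated vectors, 430 of them were called higher and 263 lower in empty-vector cells (median 0.09), beside 5409 and 5449 of all 14602 genes. With H2O2, 310 were called higher and 392 lower (median -0.05), beside 5347 and 5432 of all genes. The part of length in the values of Nfat5 and Slc5a3 was not tested.

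**Figure D5:**
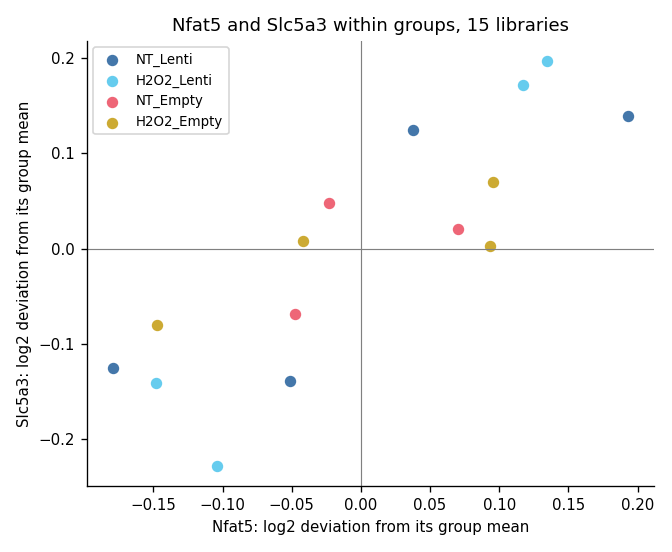
Log2 deviation of each library from its group mean for Nfat5 (x axis) and Slc5a3 (y axis), 15 libraries without library 11, coloured by group. Points spread along the diagonal, from -0.18 to 0.19 and from -0.23 to 0.20.

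The genes whose profile over the 16 libraries was closest to each member were found by the root mean square difference of log2 CPM, each gene centred on its own mean, among 10460 genes. This measure is dominated by library 11. For Akr1b3 they were its pseudogene copy Gm6644 (0.0923), Gm26917 (0.346) and Hsph1 (0.386). For Sgk1 they were Slco4a1 (0.395), Ccl2 (0.458) and Cxcl1 (0.600), and for Hspa4l Uvrag (0.0755), Plk2 (0.114) and Egfr (0.116). Ralgapa2 (0.0740), Tanc2 (0.101) and Pik3c2a (0.102) were closest to Nfat5, and Setd2 (0.0779), Smg1 (0.0892) and Ttbk2 (0.0979) to Slc5a3. Slc6a6 had the closest profiles, with Xpot (0.0355), Cant1 (0.0421) and Xpo6 (0.0447). No member was among the 3 closest genes of another.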

How the data were processed

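RNA from 16 libraries of 6DT1 cells was sequenced. Reads were handled with cutadapt, STAR and RSEM on mm10, per the submitters' processing notes, and neither versions nor annotation nor strandedness could be read from the labels. The authors deposited whole-number gene counts (25745 genes, possibly RSEM estimates rounded by them) and FPKM (25372 genes), which the authors scaled to gene length and library depth. Without strandedness, genes on opposite strands cannot be told apart in the bases where they overlap. Slc5a3 and Mrps6 overlap on the same strand, so strandedness would not separate them there. All symbols matched GENCODE vM21 (mm10), the source of positions and lengths.

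The 6 genes and all lists were chosen with earlier results of these data known, so no list is independent support. Groups came from sample titles. Tests used edgeR 4.0.16 (R 4.3.3): quasi-likelihood F test, TMM, filterByExpr, 1 coefficient per group, 15 libraries without library 11 (14602 genes), calls at a Benjamini-Hochberg adjusted p under 0.05 over all genes. SEs are the log2 change over the square root of F. Library 11 was set against the mean of libraries 9, 10 and 12 in TMM-scaled CPM, for genes of at least 1 CPM. Alternatives used DESeq2 1.42.0, limma 3.58.1 (FPKM of at least 0.5 in 4 libraries, pseudocounts 1 and 0.1, which understate changes of low genes), other scalings, filters and left-out libraries. The fit was tested on simulated data. Gm6644 was aligned with blastn 2.17.0, and promoter windows are from RefSeq GRCm38.p6. Named genes were the 6 members, Mrps6 and, of each other list, up to 2 called genes by smallest adjusted p in each vector comparison and up to 2 with the largest ratio in library 11. Likeness took 3 genes per member with an average log2 CPM of 2 or more. Totals of 47089156 to 61945199 counts give at least 83 counts for Sgk1 in every library, and the floor of 3 counts covers counting error only.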

Additional observations from a re-analysis of the deposited data

Results flagged for a closer look

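In groups of 4 libraries, a library was set apart where its gap to the nearest of the others exceeded Dixon's critical share of the group's range for 4 samples, which chance does in about 1 of 20 groups. Of 32 sets examined (6 genes and 2 shares of counts in 4 groups), 6 held such a library, and each time it was library 11. It held 1050 CPM of Nfat5 beside 180 to 195 in the others, 14375 CPM of Akr1b3 beside 169 to 175, 177 CPM of Slc5a3 beside 78.0 to 84.5, 1814 CPM of Hspa4l beside 137 to 149, and 654 CPM of Sgk1 beside 9.58 to 10.8. Structural RNA, at 0.724% of counts beside 0.0209% to 0.0244%, was the sixth. Slc6a6 at 464 CPM and mitochondrial mRNA at 2.41% were not set apart by this measure. The genes were chosen for their level in this library, so the rate of 1 of 20 does not hold for them in its group. Their flags there are a description and add nothing to that choice.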

How the results depend on the processing

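No paired analysis was possible because no library number is shared by groups. Of 743 values of the 6 members under the alternatives, 696 kept their direction and side of the threshold. With all 16 libraries, 0 members, 6079 genes and 42 pathway genes were called between the vectors with H2O2 (5, 10779 and 72 without library 11), and 0 genes for H2O2 in empty-vector cells and 0 for the difference of responses. Values turned sign there for Nfat5 (1.07) and, in untreated vectors, Aqp1 (0.57) and Mrps6 (2.32), and for Sgk1 in the difference (-3.95). All other turned signs were uncalled values near 0. Between untreated vectors they were Nfat5 in FPKM (0.0069 with a pseudocount of 1, with or without a filter, and 0.0075 with 0.1) and Slc5a3 with a filter of 10 CPM (-0.0445), with only the groups compared (-0.0043) and with voom weights (-0.0050). Sgk1 turned for H2O2 in lentivirus cells in FPKM (0.0138 with and without a filter, 0.0334 with 0.1) and in the difference with voom weights (-0.0444) and in FPKM (-0.0543 with and without a filter, -0.0823 with 0.1). The causes were not tested.

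Members called for H2O2 in empty-vector cells numbered 2 with DESeq2 and 2 with only the groups compared, and for the difference 3 with DESeq2 and 1 without a filter. Genes called for H2O2 in empty-vector cells (35) numbered 417 with DESeq2, 168 without a filter, 4 with 10 CPM, 329 with only the groups compared, 121 with voom weights and 0 in each FPKM fit. In lentivirus cells (0) they numbered 277, 12, 121 (only the groups compared) and 1 (voom). For the difference (28) they numbered 491, 166, 6 (10 CPM), 2 (voom) and 0 in each FPKM fit, and a fit of only the groups compared does not apply to it. Pathway genes, whose alternatives were added after seeing the data, numbered 5 (DESeq2), 2 (no filter) and 2 (only the groups compared) for H2O2 in empty-vector cells and 5 and 1 for the difference.

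Leaving out each of the 15 libraries gave 0 to 292 genes for H2O2 in empty-vector cells (292 without library 3, 128 without 14, 0 without 7, 9, 10, 15 or 16), 0 to 7 in lentivirus cells (7 without library 3) and 0 to 170 for the difference (170 without library 2, 137 without 14, 0 without 1, 7, 9 or 15), with 0 to 1 member (Slc6a6 without library 2 or 14), and 0 to 1 and 0 to 2 pathway genes. Ranges that crossed 0 were Nfat5 -0.10 to 0.0195 and Slc5a3 -0.0527 to 0.0411 between untreated vectors, Sgk1 -0.13 to 0.0401 for H2O2 in empty-vector cells, -0.24 to 0.0212 in lentivirus cells and -0.0452 to 0.22 for the difference, and Akr1b3 -0.0401 to 0.0258 for the difference. Leaving out library 9, 10 or 12 kept 5 of 6 members at least 2-fold higher in library 11. The Slc6a6 ratio of library 11 turned to -0.0702 on total counts and to -0.0434 without structural and mitochondrial genes.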
